A study of Mus musculus with 5 samples.

Results

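Arginine metabolism and alternative activation were followed through 9 genes in the macrophages of mouse pancreas and pancreatic tumours: Arg1, Arg2, Nos2, Ass1, Odc1, Chil3, Retnla, Mgl2 and Il4ra. The genes were taken as a list, 9 of the 27998 genes in the count tables, and all 9 are described. Macrophages were defined as cells with at least 3 UMIs (unique molecular identifiers, 1 per captured transcript) over C1qa, C1qb and C1qc and at least 10 such UMIs per 10000; 2624 of 10718 kept cells met this rule. Single cells were profiled with the 10x Genomics 3′ v2 chemistry in 5 libraries, with 1 library per group: normal pancreas of mice aged 60 days, early KIC lesions at 40 days, late KIC tumours at 60 days, late KPfC tumours at 60 days and late KPC tumours at 6 months. The mice were untreated, on a mixed C57BL/6 and FVB background except for the KPfC mice, which were C57BL/6. KIC, KPfC and KPC are genetically engineered models of pancreatic ductal adenocarcinoma, usually driven by a Cre active in the pancreatic lineage. The labels name the models without stating their alleles. Tumour model, age, strain and, except within normal pancreas and late KIC, sex cannot be told apart from library in these data. With 1 library per group there is no replicate check and no test: every interval below is a 95% interval of counting error only, and a difference is called where CPM (the UMIs of a gene summed over the cells and scaled to their total) were at least 2-fold apart with at least 20 UMIs over both sides. A gene with fewer UMIs is not counted as measured.

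Arginine in macrophages is contested by 2 enzymes. Nitric oxide synthase 2, encoded by Nos2 and induced by interferon-gamma and endotoxin, oxidises arginine to nitric oxide and citrulline, whereas arginase (Arg1 in the cytosol, Arg2 in mitochondria) hydrolyses it to urea and ornithine, from which ornithine decarboxylase (Odc1) makes polyamines; argininosuccinate synthase (Ass1) recycles citrulline towards arginine. Interleukin 4 and interleukin 13, acting through Il4ra and the transcription factor STAT6, induce Arg1 in mouse macrophages together with Chil3 (Ym1, a chitinase-like secreted protein), Retnla (Fizz1 or RELMα, a secreted protein) and Mgl2 (Cd301b, a galactose-binding lectin), so these genes are widely used as markers of alternative activation. Arg1 can also be induced by hypoxia, lactate and tumour-derived signals, and Chil3 is a gene of monocytes and granulocyte precursors as well.

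The number of macrophages was 41 in normal pancreas, 685 in early KIC, 204 in late KIC, 1441 in late KPfC and 253 in late KPC, with median UMI counts of 3778, 1825, 7783, 8133 and 2598 in that order. Library totals ran from 3488871 to 26749820 UMIs. Apoe, an abundant macrophage gene that the rule did not use, stood at 8324 to 13800 CPM in the macrophages and Csf1r at 186 to 580.5 CPM. Summed over the 5 red cell genes, the macrophages held 32260 CPM in normal pancreas against 2956 to 7466 elsewhere, and the 8 acinar markers summed to 25300 and 25693 CPM in normal pancreas and early KIC against 2.62 to 108 in the 3 late tumours. The normal pancreas and late KIC libraries held both cells with Xist and cells with Y-linked UMIs (23 and 3 macrophages, and 64 and 86), so each of these libraries held cells of both sexes. In early KIC and late KPC, 582 and 193 macrophages had Xist only and 0 had Y-linked UMIs only. Late KPfC had 0 macrophages with Xist only and 928 with Y-linked UMIs only, so the comparisons between libraries also differ in the sex of the cells. Across libraries, 62 barcodes occurred more than once (115 kept cells). No doublet caller was run. Cell shares with a UMI are given beside the share in lymphocytes, which should lack Arg1, Chil3 and Retnla; median lymphocyte UMI counts were 3035, 1525, 7902, 3378 and 955 over 234, 29, 57, 54 and 179 cells.

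Arg1 was not detected in the macrophages of normal pancreas and was present in those of all 4 lesion libraries. Its level was 0 CPM in normal pancreas (0 UMIs in 41 cells, where a floor of 3 counts allows up to 7.32% of cells with an Arg1 UMI), 180.3 CPM in early KIC (interval 159 to 204), 1226 in late KIC (1176 to 1277), 1741 in late KPfC (1718 to 1765) and 1718 in late KPC (1626 to 1813). The intervals of late KPfC and late KPC overlapped and all others stood apart. The share of macrophages with an Arg1 UMI was 0, 11.1, 66.7, 82.5 and 71.5% in the same order, against 0.427, 0, 5.26, 11.1 and 1.12% of lymphocytes. After each cell was thinned to 1000 UMIs the macrophage shares were 0, 7.88, 44.1, 54.4 and 58.5%, and the order of the 3 late tumours differed from that of the unthinned shares. Arg1 transcripts were spread over many cells in late KPfC: the tenth of macrophages with most Arg1 UMIs held 43.2% of them. The gene lies on GRCm38 at chr10:24915221-24927484, minus strand.

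**Figure D1:**
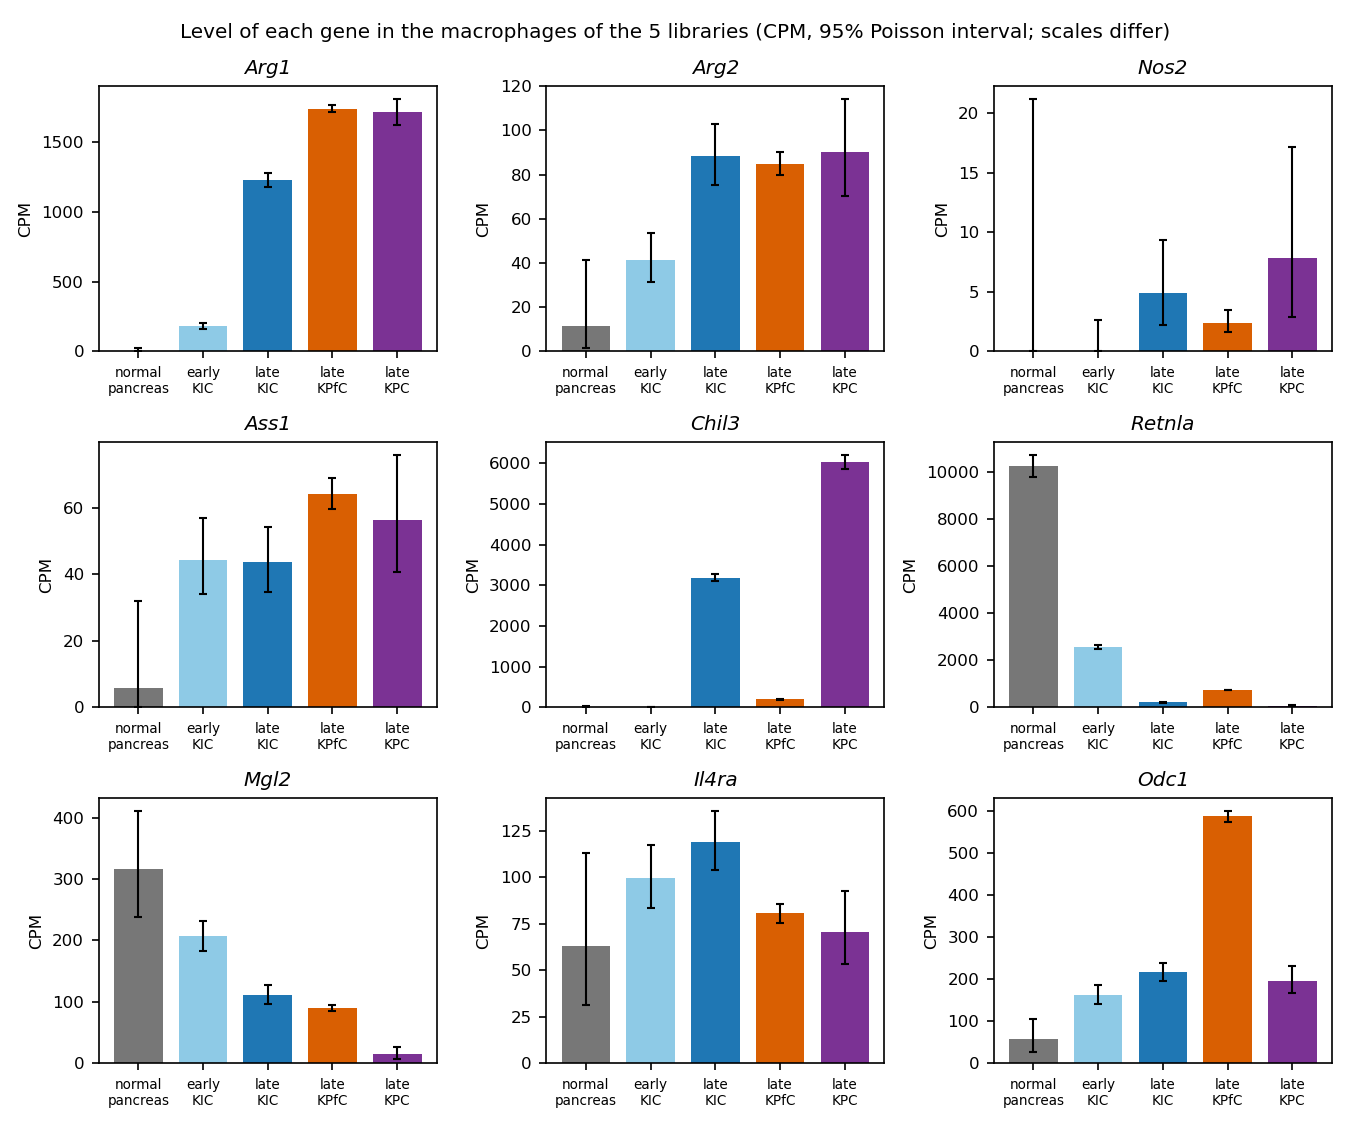
CPM of each of the 9 genes (vertical axis, starting at 0, a different scale in each panel) in the macrophages of the 5 libraries; bars are the CPM of summed UMIs and error bars the 95% Poisson interval. Arg1 goes from 0 in normal pancreas to 1741 in late KPfC, Retnla from 10236 in normal pancreas to 60.3 in late KPC, and Chil3 is high only in late KIC (3185) and late KPC (6036) among these 5 libraries.

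The other enzymes of arginine use were at low levels. Arg2 stood at 11.5 CPM in normal pancreas (2 UMIs), 41.5 in early KIC, 88.3 in late KIC, 84.9 in late KPfC and 90.4 in late KPC, and the intervals of the 3 late tumours overlapped. Nos2, the competing enzyme, had 0 UMIs in the macrophages of normal pancreas and early KIC (interval up to 21.2 and 2.64 CPM), 9 UMIs in 4 late KIC cells, 29 UMIs in 24 late KPfC cells and 6 UMIs in 5 late KPC cells, or 4.90, 2.41 and 7.86 CPM. Nos2 transcripts were therefore detected in at most 1.98% of the macrophages of any library. Ass1 stood at 5.75 CPM in normal pancreas (1 UMI), 44.4 in early KIC, 43.6 in late KIC, 64.0 in late KPfC and 56.3 in late KPC. Odc1, the polyamine enzyme downstream of arginase, stood at 57.5, 162, 216, 587 and 197 CPM, and late KPfC lay apart from all the others. Sequence shared with other genes limits Ass1 and Odc1: 21.8% of the 99-base words at the 3′ ends of Ass1 transcripts also occur in Gm5424, and 12.01% of those of Odc1 in 8 other genes, so reads from such copies cannot be assigned with certainty. These genes lie at chr12:79130777-79156301 (Arg2), chr11:78920787-78960254 (Nos2), chr2:31470207-31520672 (Ass1) and chr12:17544794-17551505 (Odc1), all on the plus strand.

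Retnla ran the other way. Its level was 10236 CPM in normal pancreas (9766 to 10723), 2548 in early KIC (2465 to 2633), 222 in late KIC (201 to 245), 735 in late KPfC (719 to 750.1) and 60.3 in late KPC (44.1 to 80.4), and no 2 of these intervals overlapped. The share of macrophages with a Retnla UMI was 56.1, 36.1, 6.37, 39.5 and 1.19%, and 53.7, 30.9, 2.45, 15.4 and 0.830% after thinning, against 2.99, 13.8, 0, 11.1 and 0% of lymphocytes. In the late tumours most Retnla UMIs lay in few cells. Of 408 Retnla UMIs in late KIC, 93.9% lay in 5 cells, and in late KPC 42 of 46 UMIs lay in a single cell. The tenth of macrophages with most Retnla UMIs held 92.3% of them in late KPfC, 77.8% in early KIC and 53.8% in normal pancreas. In late KIC the level was 382 CPM in macrophages with Xist and no Y-linked UMI and 39.7 in those with Y-linked UMIs and no Xist, which cannot be told apart from the animal. Retnla lies at chr16:48842551-48844461, plus strand.

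Chil3 was nearly absent from the macrophages of normal pancreas (0 UMIs) and early KIC (8 UMIs in 8 cells, 5.72 CPM) and abundant in 2 of the 3 late tumours. It stood at 3185 CPM in late KIC (3104 to 3268), 200.1 in late KPfC (192 to 208) and 6036 in late KPC (5863 to 6213). Of the macrophages, 72.5, 27.8 and 80.2% had a Chil3 UMI in late KIC, late KPfC and late KPC, and 41.7, 9.58 and 73.0% after thinning. Lymphocytes of these libraries had Chil3 UMIs in 31.6, 3.70 and 10.1% of cells, at 47.7, 17.6 and 138 CPM, so the excess in macrophages is read from the CPM rather than from the shares. Chil3 lies at chr3:106147554-106167564, minus strand, and 6.45% of its 3′ words also occur in the neighbouring family member Chil4.

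Because Retnla and Chil3 are used side by side as targets of the same pathway and had opposite levels here, their promoters are shown from RefSeq for GRCm38.p6, from 250 bases before to 50 bases after the start, with 6 of the 9 genes matched in that table. Capitals mark the words searched on both strands: a STAT6 word (TTC and GAA around 4 bases of any kind), a C/EBP word (TTGCNNAA) and a TATA box word (TATAAA).
Retnla, chr16:48842359-48842658, plus strand: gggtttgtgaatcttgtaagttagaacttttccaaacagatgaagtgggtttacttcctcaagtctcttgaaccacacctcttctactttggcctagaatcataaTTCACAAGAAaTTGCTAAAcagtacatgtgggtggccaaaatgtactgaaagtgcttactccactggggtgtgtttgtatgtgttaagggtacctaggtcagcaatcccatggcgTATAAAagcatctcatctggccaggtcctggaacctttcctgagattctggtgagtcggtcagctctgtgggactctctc
Chil3, chr3:106167515-106167814, minus strand: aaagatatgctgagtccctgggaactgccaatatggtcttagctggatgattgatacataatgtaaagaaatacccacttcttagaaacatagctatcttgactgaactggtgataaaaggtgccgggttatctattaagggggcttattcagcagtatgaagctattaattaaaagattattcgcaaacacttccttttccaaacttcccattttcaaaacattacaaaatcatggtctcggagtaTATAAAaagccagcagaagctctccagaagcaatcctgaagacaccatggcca
The Retnla window held a STAT6 word beginning 145 bases before the start, a C/EBP word 134 bases before it and a TATA box word 30 bases before it. The Chil3 window held a TATA box word beginning 3 bases before the annotated start and neither of the others. The windows of the other matched genes, Mgl2, Ass1, Il4ra and Odc1, held none of these words. Mgl2, like Retnla, was highest in normal pancreas and lowest in late KPC. Of 32851 promoters of this length, 6.95% held the STAT6 word, 10.8% the C/EBP word and 13.6% the TATA box word, so each match is a description of letters, not of binding.

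Mgl2 and the receptor Il4ra differed less. Mgl2 stood at 316 CPM in normal pancreas (238 to 411), 207 in early KIC (184 to 232), 111 in late KIC (96.4 to 128), 90.2 in late KPfC (84.9 to 95.7) and 14.4 in late KPC (7.19 to 25.8), with normal pancreas highest and late KPC lowest as for Retnla. No neighbours in this order had overlapping intervals, although those of late KIC and late KPfC nearly met. The share of macrophages with an Mgl2 UMI was 56.1, 26.1, 30.4, 28.9 and 4.35%, and 31.7, 19.1, 7.84, 7.36 and 1.24% after thinning. Il4ra, the receptor chain shared by interleukin 4 and interleukin 13, stood at 63.2, 99.5, 119, 80.5 and 70.7 CPM, and only the interval of late KIC lay apart from that of late KPfC and late KPC. Mgl2 lies at chr11:70130329-70137550 and Il4ra at chr7:125552120-125579474, both on the plus strand.

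Between early KIC and normal pancreas, 4 of the 7 members measured were at least 2-fold higher in early KIC macrophages and 1 was lower. Of all 5822 genes measured in that comparison 25.3% were called (19.3% higher and 5.98% lower). Arg1 was at least 10.458-fold higher, taken against a floor of 3 counts in the normal macrophages. Retnla was 4.02-fold lower (3.79 to 4.25) and Odc1 2.83-fold higher (1.51 to 5.97). The calls of Arg2 (3.61-fold, 0.955 to 30.5) and Ass1 (7.72-fold, 1.34 to 309.7) rest on 2 UMIs and 1 UMI in the 41 normal macrophages. In normal cells with Xist and no Y-linked UMI, Ass1 was not detected and was set to the floor of 3 counts. Its log2 difference there was therefore a bound, at least 0.65, against 2.95 with all cells.

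From early to late KIC, 3 of 8 measured members were higher and 1 was lower, and 21.9% of all genes measured were called (10.7% higher and 11.2% lower). The early KIC library enters this comparison and the one before it. Chil3 was 556-fold higher (282 to 1289), Arg1 6.80-fold higher (5.96 to 7.77) and Arg2 2.13-fold higher (1.57 to 2.92). Retnla was 11.5-fold lower (10.3 to 12.7). The call of Arg2 is near the threshold: its log2 difference of 1.09 was 0.98 with a stricter C1q rule (at least 5 UMIs and 20 per 10000) and 0.63 in late KIC cells with Xist and no Y-linked UMI. Ass1, Il4ra, Odc1 and Mgl2 stayed within 2-fold.

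Among the late tumours, late KIC and late KPC were each set against late KPfC, so both comparisons share that library. In late KIC 2 of 9 members were higher and 2 lower than in late KPfC, with 18.4% of all genes called (7.13% higher and 11.3% lower). Chil3 was 15.9-fold higher (15.2 to 16.7), Retnla 3.30-fold lower (2.99 to 3.66) and Odc1 2.72-fold lower (2.46 to 3.01). The Retnla call was lost in late KIC cells with Xist and no Y-linked UMI, where the log2 difference was -0.94 against -1.72 with all cells. In late KPC 2 of 9 were higher and 3 lower, with 23.4% of all genes called (12.2% higher and 11.2% lower). Chil3 was 30.2-fold higher (28.7 to 31.7), Retnla 12.2-fold lower (9.13 to 16.7), Mgl2 6.26-fold lower (3.48 to 12.6) and Odc1 2.98-fold lower (2.54 to 3.53). Arg1 was within 2-fold in both comparisons, at 1.42-fold lower in late KIC and 1.01-fold lower in late KPC (interval 0.959 to 1.07). Nos2 passed the fold in both (2.04-fold, 0.848 to 4.42, and 3.26-fold, 1.11 to 8.00) on the few UMIs given above, and in late KIC its log2 difference of 1.03 was between 0.39 and 0.99 under 5 of the alternatives.

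Monocytes, defined as cells outside the C1q rule in macrophage-like or monocyte-like clusters with at least 2 UMIs over Ly6c2, Ccr2, Plac8, Ms4a4c, F13a1 and F10, were 49 in early KIC, 81 in late KIC, 407 in late KPfC and 179 in late KPC. Normal pancreas had 6 and is left out. No cluster was named monocyte-like at the resolution used, so all these monocytes lay in clusters named macrophage-like. Chil3 belonged more to these cells than to macrophages: it stood at 8353 CPM in late KIC monocytes, 575 in late KPfC and 14965 in late KPC, or 2.62-fold, 2.88-fold and 2.48-fold above the macrophages of the same library. Retnla showed the reverse in late KPfC, at 46.6 CPM in monocytes, 15.8-fold lower than in macrophages. Late KIC monocytes held 28.3 CPM of Retnla, 7.87-fold lower than the macrophages, but this contrast rests on few cells: without the 5 cells with most Retnla the macrophages held 13.9 CPM (9.02 to 20.6), and without theirs the monocytes held 0. Early KIC monocytes held 1485 CPM, within 2-fold of the macrophages there, and 204 without the 5 cells with most Retnla, against 2144 in the macrophages treated in the same way. These values without the leading cells were added after seeing the data. F13a1, used to define monocytes, is also on the list of resident macrophage receptors, and its part in the Retnla values of monocytes was not tested. Arg1 stood at 641, 1484, 981 and 1365 CPM in the monocytes of early KIC, late KIC, late KPfC and late KPC. It was called in early KIC, where it was 3.55-fold higher in monocytes (interval of the macrophage to monocyte ratio 0.212 to 0.379), and the ratios of the late tumours lay between 0.826 and 1.78. The early KIC value rests on few cells: 5 of the 49 monocytes held 44 of their 60 Arg1 UMIs. An Arg1 UMI was seen in 13 of these monocytes (26.5%) and in 11.1% of the macrophages there. F10, also used to define monocytes, followed Arg1 over groups of cells (Pearson r = 0.90). Its part in the Arg1 values of monocytes was not tested.

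Members at least 2-fold apart between the cell types numbered 2 of 7 measured in early KIC, 5 of 8 in late KIC, 6 of 9 in late KPfC and 2 of 7 in late KPC, where 21.5, 14.9, 10.1 and 11.3% of all genes were called. In late KPfC Arg2, Nos2 and Ass1 were all higher in monocytes, at 212, 7.45 and 165 CPM against 84.9, 2.41 and 64.0 in macrophages. The Nos2 value of the monocytes rests on 19 UMIs in 5 of 407 cells, 8 of them in 1 cell. The share of cells with a Nos2 UMI was lower in monocytes (1.23%) than in macrophages (1.67%). Mgl2 was higher in macrophages in late KIC (8.99-fold, 4.28 to 22.6) and late KPfC (2.59-fold, 2.08 to 3.25). Ass1 in late KPC lay the other way, at 56.3 CPM in macrophages and 28.1 in monocytes (2.01-fold, 1.11 to 3.82), and its log2 difference was between 0.37 and 0.995 under 6 of the alternatives. The early KIC call of Il4ra rests on 4 monocyte UMIs. Calls lost under an alternative were Chil3 in late KIC (log2 -1.39, and -0.81 without macrophages holding markers of other cells), Ass1 in late KIC (-1.08, and -0.69 with the stricter C1q rule) and Mgl2 in late KPfC (1.37, and 0.64 with all C1q-low cells of those clusters as monocytes). Retnla in late KPfC was 2.34 with the stricter C1q rule, against 3.98. Summed neutrophil markers were 952.6 to 2521 CPM in the monocytes of these 4 libraries and 39.4 to 1025 in the macrophages. In early KIC 4 of the 7 (Cxcr2, Retnlg, Mmp9 and Lcn2) were at 0 in monocytes, and in the 3 late tumours none was; the part of neutrophil RNA in the Chil3 values was not tested. Counting all cells of those clusters outside the C1q rule as monocytes turned Retnla in late KIC to a log2 difference of -0.61, against 2.98. That turn rests on 1 cell: all late KIC cells outside the C1q rule held 259 Retnla UMIs with it and 39 without it.

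**Figure D2:**
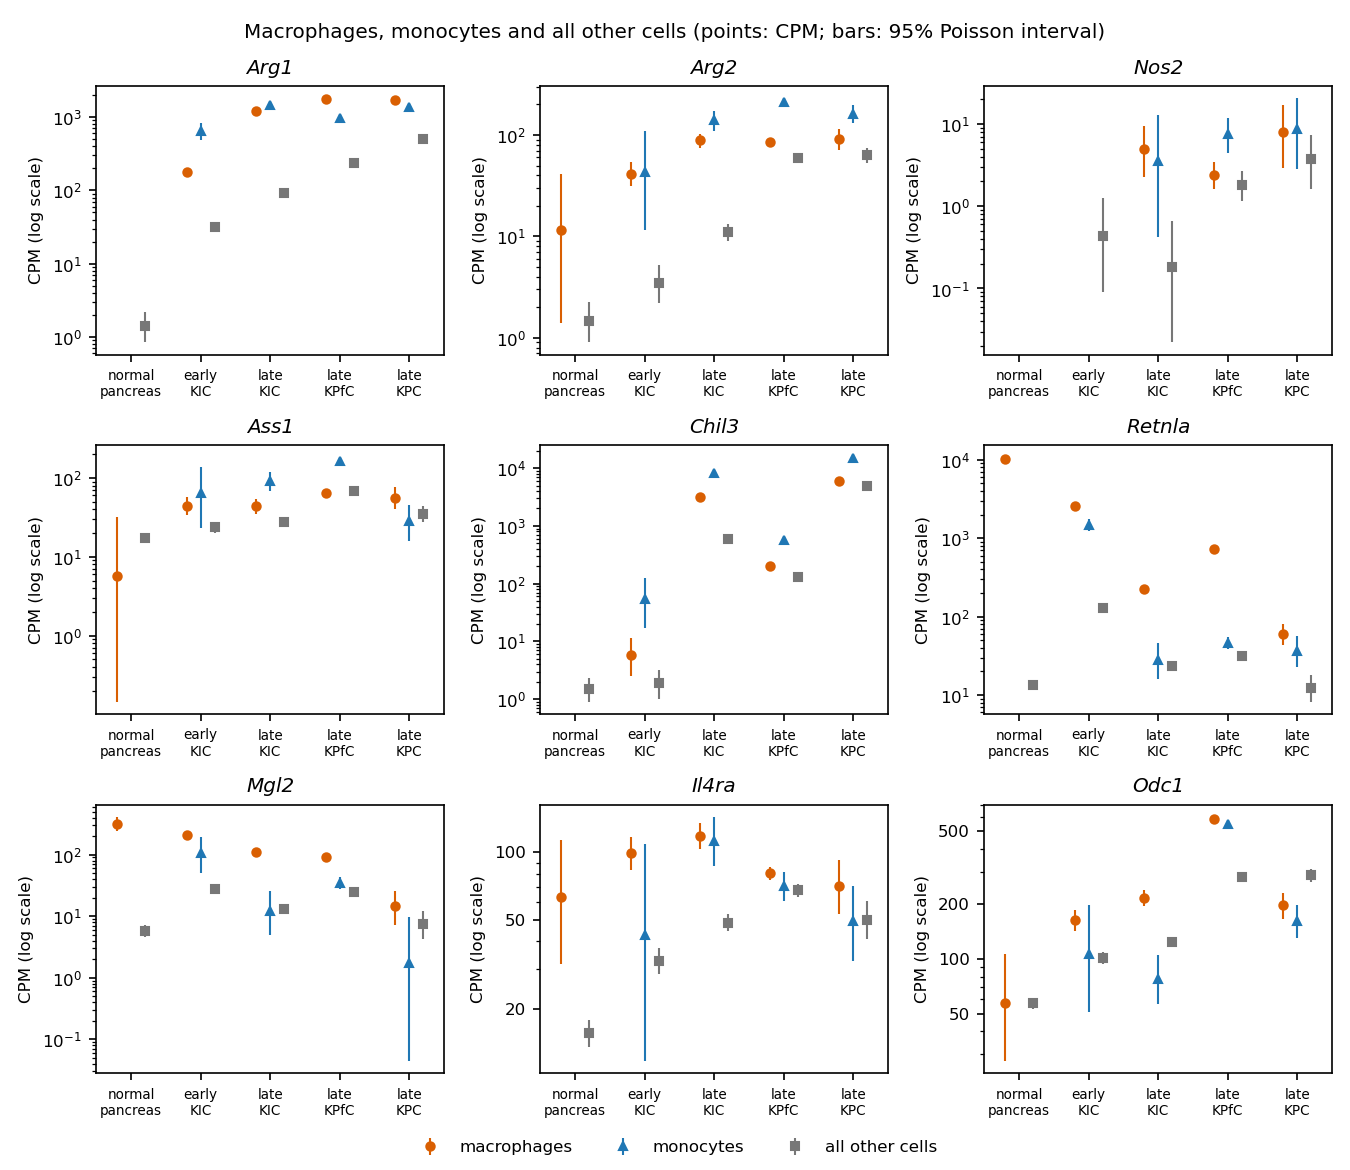
CPM (log axis) of each gene in macrophages (circles), monocytes (triangles) and all cells outside the C1q rule, monocytes included (squares, marked all other cells); vertical bars are 95% Poisson intervals, and groups with 0 UMIs or under 30 cells have no point. Chil3 triangles lie above the circles in the libraries that have both, and Retnla circles lie above the squares in all 5 libraries.

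Against all cells outside the C1q rule, 4 of 7 measured members were at least 2-fold higher in the macrophages of normal pancreas, 6 of 8 in early KIC, 6 of 8 in late KIC, 4 of 9 in late KPfC and 2 of 8 in late KPC. The share of all genes called higher was 35.8, 11.4, 11.8, 8.47 and 6.6% in the same order. Retnla was higher in macrophages of all 5 libraries, 756-fold in normal pancreas, 20.01-fold in early KIC, 9.39-fold in late KIC, 23.1-fold in late KPfC and 4.82-fold in late KPC. In late KPC the difference rests on 1 cell: without it the macrophages held 5.27 CPM of Retnla (1.44 to 13.5), against 12.5 in the other cells, or 10.2 without their own leading cell. In late KIC, macrophages without their 5 leading cells held 13.9 CPM against 23.7 in all other cells, of which 1.84 was left without the 5 leading cells there. In normal pancreas, early KIC and late KPfC the levels without the 5 leading cells of each side were 5468 against 7.75, 2144 against 100.6 and 634 against 29.2 CPM. Arg1 was higher in the macrophages of the 4 tumour libraries, by 5.77-fold, 13.3-fold, 7.30-fold and 3.37-fold. Odc1 was higher in late KPfC macrophages by 2.08-fold, a log2 difference of 1.06 that was 0.82 as a mean over cells. The call of Il4ra in normal pancreas (4.07-fold, on 11 UMIs) was lost when haemoglobin and acinar genes were left out of the totals, where its log2 difference was 0.89 against 2.02. Other cells also held some members. Mgl2 in conventional dendritic-like cells was above the macrophage level in early KIC (414 against 207 CPM) and late KIC (394 against 111), and overlapped it within counting error in normal pancreas (319 against 316). Ass1 stood at 174 CPM in late KIC lymphocytes against 43.6 in the macrophages, and Arg2 at 319 CPM in late KPfC neutrophil-like cells against 84.9. Chil3 stood at 3211 CPM in the neutrophil-like cells of late KPC, below the 6036 of the macrophages. In late KPfC, lymphocytes held 26.3 CPM of Arg1 and 26.3 CPM of Retnla, and free RNA from other cells cannot be told apart from expression at such levels.

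Arg1, Chil3 and Retnla shared cells to different degrees. After thinning to 1000 UMIs, Retnla alone was seen in 53.7% of normal macrophages and 29.6% of early KIC macrophages, Arg1 alone in 40.2% of late KPfC macrophages, and Arg1 with Chil3 in 24.5% of late KIC and 49.0% of late KPC macrophages. None of the 3 genes was seen in 46.3, 61.9, 38.2, 35.5 and 17.8% of the macrophages of the 5 libraries in order. All 3 together were seen in 4 of 1441 late KPfC cells and 1 of 241 late KPC cells, and in no cell of the other libraries; without thinning they were seen together in 129 late KPfC, 8 late KIC and 3 late KPC macrophages.

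**Figure D3:**
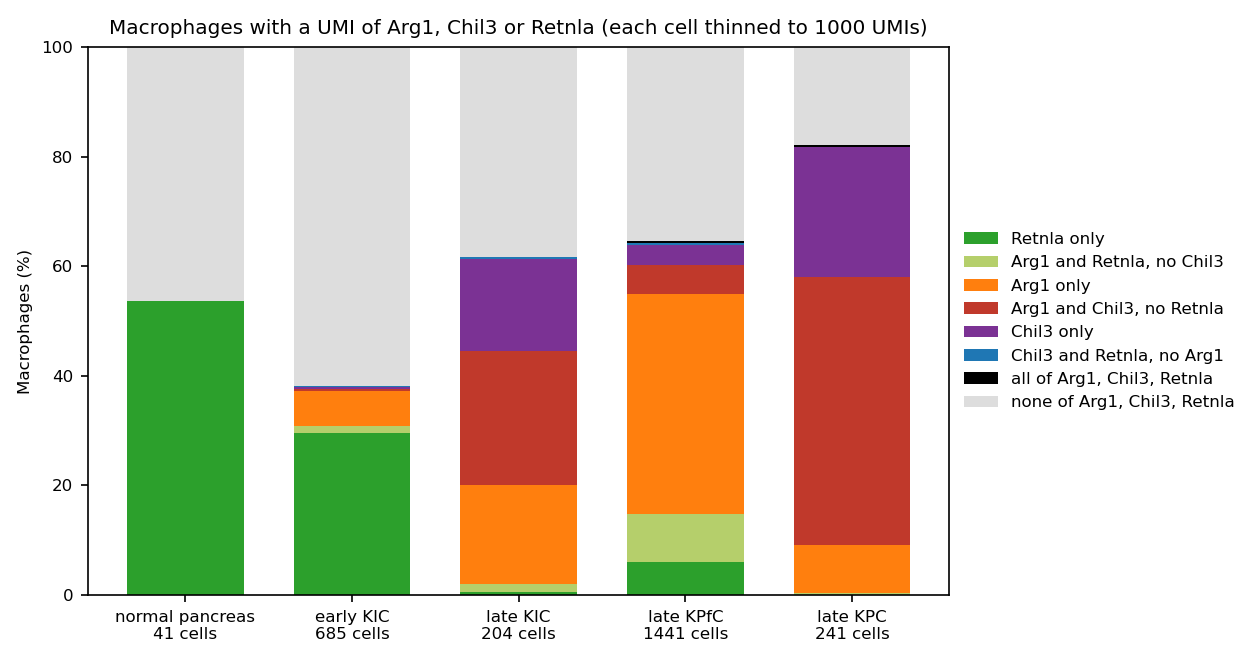
Share of macrophages (vertical axis, percent, 0 to 100) with a UMI of each combination of Arg1, Chil3 and Retnla in the 5 libraries after each cell was thinned to 1000 UMIs; the number of cells stands under each bar. The bars go from Retnla alone in normal pancreas (53.7%) to Arg1 with Chil3 in late KPC (49.0%).

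After thinning, Arg1 and Chil3 met in the same macrophages more often than their separate shares gave in late KIC, in 50 cells against 37.5 (ratio 1.33, 1.07 to 1.58), and in late KPC, in 119 against 103 (1.16, 1.06 to 1.23). In late KPfC the interval spanned 1, at 79 cells against 75.1 (1.05, 0.842 to 1.29). Without thinning the ratio was 1.10 (1.03 to 1.15) in late KPC, and the intervals of late KIC (1.08, 0.976 to 1.17) and late KPfC (1.04, 0.9504 to 1.14) spanned 1. Arg1 and Retnla met less often in early KIC, in 8 cells against 16.7 (0.479, 0.214 to 0.876). In late KPfC they met in 130 against 120.8 cells after thinning (1.08, 0.912 to 1.26) and in 508 against 469.5 without it (1.08, 1.01 to 1.15), where 42.7% of macrophages with Arg1 and 24.2% of those without had a Retnla UMI. Chil3 and Retnla met in 9 late KPfC cells against 21.3 (0.423, 0.196 to 0.780), but without thinning in 138 against 158.3 (0.872, 0.754 to 0.995), and without macrophages holding markers of other cells the thinned ratio was 0.155. In late KPC only 2 thinned cells, and in late KIC 5, had Retnla, too few to describe.

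Levels were then compared between macrophages with and without a transcript. In early KIC the 76 macrophages with an Arg1 UMI held 829 CPM of Retnla against 2806 in the 609 without (ratio 0.295, 0.249 to 0.348), 109.8 against 221 CPM of Mgl2 and 98.8 against 36.2 CPM of Ass1. In late KPfC Retnla was higher in cells with Arg1: 819 CPM in the 1189 cells with Arg1 against 206 in the 252 without (3.97, 3.56 to 4.44). Mgl2 was lower in the cells with Arg1 there as well, at 73.3 against 197 CPM. The cells with Arg1 were deeper in both libraries (median 2334 against 1774 UMIs, and 8554 against 6037), and the part of depth in these values was not tested. Chil3 was 3.45-fold (3.18 to 3.75) and 2.05-fold (1.88 to 2.24) higher in cells with Arg1 in late KIC and late KPC. In late KPfC, cells with Chil3 held 255 CPM of Retnla against 935 in those without (0.273, 0.255 to 0.293).

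Other gene groups differed with Arg1 detection. Of the hypoxia and glycolysis genes measured, 7 of 12 were at least 2-fold higher in macrophages with Arg1 in early KIC, 6 of 13 in late KIC, 3 of 13 in late KPfC and 6 of 12 in late KPC, where 6.25, 5.21, 6.58 and 6.82% of all genes were. The medians of the list were 1.15, 0.96, 0.67 and 0.91 on the log2 scale, against medians of all genes between -0.03 and 0.01. The glycolytic enzyme gene Pfkl was 4.35-fold (2.11 to 8.71) higher in early KIC and 2.80-fold (2.16 to 3.70) in late KPfC. Egln3, an oxygen sensor induced by hypoxia, was 21.4-fold (3.67 to 863) higher in late KIC and 2.77-fold (1.82 to 4.43) in late KPfC. Genes of MHC class II, which present antigen, were lower in cells with Arg1 in 7 of 7 cases in late KPfC and 5 of 6 in late KPC, where 4.89 and 4.9% of all genes were lower, and in 1 of 7 and 0 of 7 in late KIC and early KIC, where 2.87 and 11.8% were. Their medians were -0.48, -0.86, -1.30 and -1.34 in early KIC, late KIC, late KPfC and late KPC. H2-Eb1 stood at 1805 against 4701 CPM in late KPfC and 1149 against 3468 in late KPC. Of the other genes of the arginine, nitric oxide and polyamine pathway, 1 of 20, 2 of 20, 1 of 25 and 2 of 18 were higher with Arg1 and 2, 0, 1 and 1 lower in the same order. Slc7a2, a cationic amino acid transporter that brings arginine into macrophages, was higher with Arg1 in late KIC (3.94-fold, 2.30 to 7.23), late KPfC (3.63-fold, 3.15 to 4.21) and late KPC (2.29-fold, 1.09 to 5.56).

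The chemokine gene Ccl17, itself induced by interleukin 4, was lower in cells with Arg1: 8.84-fold in late KIC (40.7 against 360.1 CPM), 5.09-fold in late KPfC (428 against 2177) and 10.6-fold in late KPC (61.8 against 657). Il6 was higher with Arg1 in late KIC (2.59-fold) and late KPfC (3.33-fold). Ccl17 and Il6 are single genes, and the rest of their lists is not described for this contrast. Receptors of resident macrophages were lower in cells with Arg1 in 8 of 9 cases in early KIC (median -1.88), where 11.8% of all genes were lower, Cd163 by 28.0-fold (4.97 to 1113) and Lyve1 by 8.94-fold (3.01 to 43.8). In late KPfC 3 of 9, among them Folr2 (3.58-fold) and Timd4 (3.23-fold), were higher (median 0.71), where 6.58% of all genes were. None of the 5 measured in late KIC was called (median -0.06), and 1 of 4 in late KPC, Cd163, was higher (median 0.18). In cells with Retnla, Lyve1 was higher by 2.35-fold in early KIC, and Lyve1 by 2.66-fold and Folr2 by 2.60-fold in late KPfC, where 1 of 9 and 3 of 9 of the list were called higher (medians 0.71 and 0.63) and 3.56 and 1.58% of all genes were higher. In early KIC, 7 of 12 dissociation stress genes were lower in cells with Arg1, against 1 of 12 in late KIC and 0 of 12 in late KPfC and late KPC (medians -1.12, -0.44, 0.10 and -0.25). The part of tissue handling in these values was not tested.

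Genes of peritoneal-type macrophages also went with Arg1 and Chil3. Of those measured, 4 of 4, 3 of 6, 7 of 10 and 3 of 7 were higher in cells with Arg1 in early KIC, late KIC, late KPfC and late KPC. Of all genes, 6.25, 5.21, 6.58 and 6.82% were higher with Arg1 in the same order. The 4 genes measured in early KIC were Prg4, Fn1, Saa3 and Slpi. Gata6, Cxcl13, Icam2, F5, Alox15 and Selp had too few UMIs there. In cells with Chil3, 4 of 6 were higher in late KIC, 7 of 10 in late KPfC and 5 of 7 in late KPC, where 5.26, 2.76 and 8.88% of all genes were. Alox15, in this list and among the alternative activation genes, stood at 1043 CPM in late KPfC macrophages with Chil3 and 254.9 in those without (4.09-fold, 3.88 to 4.31). The part of cells of peritoneal type in the Arg1 and Chil3 values was not tested.

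Clustering of all cells without the 9 genes placed the macrophages mainly in clusters whose levels of the members differed within a library. In early KIC, 206 macrophages of a cluster led by Ccl8, Retnla, Cd209f and Pf4 (cluster 18) held 2.93 CPM of Arg1, against 269.8 in 415 macrophages of cluster 4. The CPM of Retnla were alike, at 2751 in cluster 18 and 2791 in cluster 4, but its spread over cells differed. After thinning, 42.7% (35.9 to 49.8) of these cluster 18 macrophages and 26.5% (22.3 to 31.0) of those of cluster 4 had a Retnla UMI. In late KIC, 73 macrophages of cluster 2 held 2582 CPM of Arg1, 7228 of Chil3 and 8.68 of Mgl2, whereas 109 of cluster 6, led by Ccl17 and Mmp12, held 569.7, 872 and 185. Nearly all late KPC macrophages (247 of 253) fell in cluster 2. In late KPfC 526 macrophages of cluster 5 held 2932 CPM of Arg1 and 1341 of Retnla, whereas 352 of cluster 6 held 689 and 34.1; Ass1 was 8.38 in cluster 5 and 205 in cluster 6. A further 104 late KPfC macrophages (cluster 25, led by Alox15, Prg4 and Serpinb2) held 1437 CPM of Arg1 and 1059 of Chil3 with 40.1 of Retnla. Cluster 26, with 107 late KPfC macrophages, had no clear type, is left unnamed and held 518 CPM of Arg1.

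**Figure D4:**
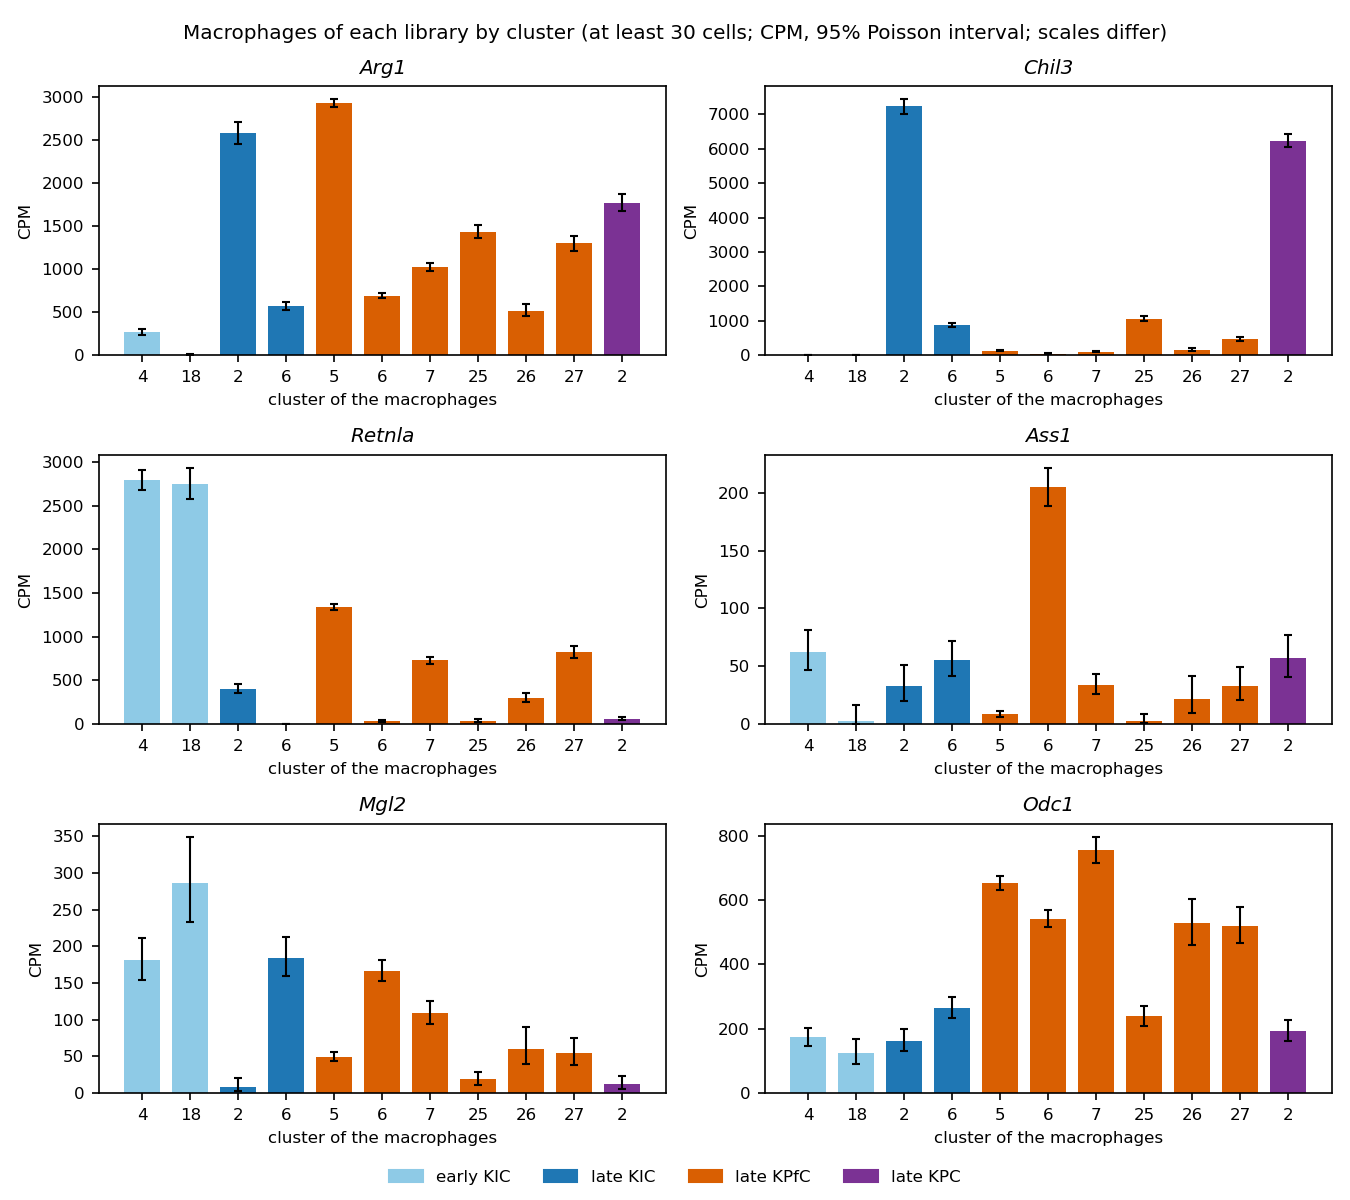
CPM (vertical axis, starting at 0, a different scale in each panel) of 6 genes in the macrophages of each cluster with at least 30 cells; colour gives the library, the horizontal axis the cluster number, and error bars the 95% Poisson interval. Chil3 is high in cluster 2 of late KIC (7228) and late KPC (6239), and Ass1 in cluster 6 of late KPfC (205).

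The rest of the arginine, nitric oxide and polyamine pathway was followed in a list of 32 genes without the members. In early KIC against normal pancreas 4 of 20 measured were higher and 0 lower, where 19.3% of all genes were higher and 5.98% lower, with a median log2 difference of 0.23 against 0.21 over all genes. Gamt and Asl were the furthest up, each on 1 normal UMI. In late KIC against early KIC 2 of 22 were higher, Slc7a2 by 6.01-fold (3.72 to 10.3) and the spermine oxidase gene Smox by 2.06-fold (1.68 to 2.54), and 1 was lower, Ddah2, which degrades an inhibitor of nitric oxide synthase, where 10.7 and 11.2% of all genes were. Against late KPfC, 3 of 25 were higher and 2 lower in late KIC, where 7.13 and 11.3% of all genes were, and 4 of 25 higher and 2 lower in late KPC, where 12.2 and 11.2% were. These counts differed little from the shares over all genes. Gatm, which uses arginine for creatine synthesis, was higher in both (328 and 436 CPM against 67.5), and Slc7a2 was lower in both (81.7 and 87.8 CPM against 394). The medians of these comparisons were -0.08, 0.37 and 0.18 against 0.05, -0.01 and 0.15 over all genes.

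A second list held 25 other genes of alternative activation. In early KIC against normal pancreas 4 of 18 were higher and 4 lower, in late KIC against early KIC 5 of 20 higher and 5 lower, in late KIC against late KPfC 3 of 21 higher and 9 lower, and in late KPC against late KPfC 3 of 21 higher and 6 lower. Over all genes 19.3, 10.7, 7.13 and 12.2% were higher and 5.98, 11.2, 11.3 and 11.2% lower in the same order. The eotaxin gene Ccl24 was 4.32-fold lower (3.32 to 5.60) in early KIC than in normal pancreas and 6.32-fold higher (5.39 to 7.46) in late than in early KIC. The list medians were -0.06, 0.09, -0.68 and -0.45, against 0.21, 0.05, -0.01 and 0.15 over all genes. The lipid uptake receptor Cd36 was 50.8-fold lower (24.3 to 128) in late KIC than in early KIC. Alox15, a lipoxygenase gene that also marks peritoneal macrophages, stood at 487 CPM in late KPfC against 10.9 in late KIC and 56.3 in late KPC. The mannose receptor gene Mrc1 was 3.71-fold higher (3.38 to 4.07) in late KPC than in late KPfC. Genes of the list lay in both directions in each of the 4 comparisons.

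Of 16 genes of the interferon-gamma and endotoxin response, which marks the opposite form of activation, 2 of 13 measured were higher and 4 lower in early KIC against normal pancreas, 5 of 14 higher and 1 lower in late against early KIC (Il6 by 6.49-fold, Il1a by 6.38-fold), 1 and 1 of 14 in late KIC against late KPfC, and 0 and 6 of 14 in late KPC against late KPfC. Their medians were -0.81, 0.15, 0.47 and -0.41. Cxcl10 was 13.2-fold lower (8.65 to 21.4) in late KPC. The shares of all genes given for the alternative activation list (19.3, 10.7, 7.13 and 12.2% higher, 5.98, 11.2, 11.3 and 11.2% lower) are the background of these counts and of those that follow, and the medians of all genes were 0.21, 0.05, -0.01 and 0.15. Genes of hypoxia and glycolysis lay higher in 6 of 12 cases in early KIC against normal pancreas and 11 of 13 in late against early KIC (none lower), neither higher nor lower in late KIC against late KPfC, and higher in 1 and lower in 4 of 13 in late KPC against late KPfC (medians 0.95, 1.59, 0.09 and -0.59). Resident macrophage receptors were lower in 2, 8, 5 and 4 of 9 in the same order, with 3 higher in late KPC (medians -0.81, -3.57, -1.63 and -0.73). Lipid-associated macrophage genes were higher in 6, 3, 1 and 1 of 11 and lower in 0, 2, 2 and 2 (medians 1.39, -0.05, -0.05 and -0.03). Peritoneal-type genes were higher in 3 of 4 and 3 of 7 in the comparisons up to late KIC, and lower in 8 and 6 of 10 in late KIC and late KPC against late KPfC (medians 3.15, 0.69, -3.13 and -1.75). Those higher were Fn1, Saa3 and Slpi in early KIC against normal pancreas, and Cxcl13, Saa3 and Slpi in late against early KIC. Gata6, F5 and Selp were not measured in either, nor Cxcl13, Icam2 and Alox15 in the first. MHC class II genes were higher in 3 of 7 in late KIC against late KPfC and within 2-fold in the other comparisons (medians -0.62, 0.41, 0.97 and -0.37). Dissociation stress genes were lower in 7, 4, 6 and 3 of 12, with 1 higher in late KPC (medians -1.03, -0.89, -0.67 and -0.68). The part of these differences in the members' values was not tested.

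Over 41 groups of cells (a cell type in a library, at least 30 cells), log2(CPM + 10) of Arg1 was most like that of Tfec (r = 0.93), Msr1 (0.91), F10 (0.90), F7 (0.90) and Olr1 (0.88) among 12477 genes. Chil3 was most like Wfdc21 and Mmp8 (0.86 each), Fpr2 (0.83), Fpr1 (0.81) and Cxcl3 (0.80), genes known from neutrophils and monocytes. Retnla was most like Ms4a7 (0.91), Lyz1 (0.90), Fcrls (0.90), Cbr2 (0.86) and Folr2 (0.85). These are descriptions over groups that share libraries and depth, and F10 was also used to define monocytes.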

How the data were processed

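Count tables of 5 libraries (10x Genomics 3′ v2) were used as deposited: whole-number UMI counts per gene and barcode, which the authors produced from GRCm38 and Cell Ranger 2.1.1, per the submitters' processing notes. No filter of the authors on barcodes is known here. Kept barcodes (10718) had 200 or more genes, 500 or more UMIs and no more than 20% of UMIs from mitochondrial genes. Cells were clustered without the 9 genes (scanpy 1.11.5, anndata 0.12.19, leidenalg 0.10.2, igraph 0.11.9, 2000 variable genes, 30 principal components, 15 neighbours, Leiden resolution 1) into 32 clusters, named from marker lists; 2 clusters of 438 cells stayed unnamed. No doublets were removed. UMIs were summed per library and cell type and given as CPM of all UMIs, with exact Poisson intervals for levels, exact binomial intervals for ratios and Clopper-Pearson intervals for shares (numpy 2.4.6, scipy 1.17.1, pandas 2.3.3, Python 3.11.15; figures with matplotlib 3.10.9). All cover counting error only, because each group is 1 library and no test was possible. A side with 0 UMIs was set to a floor of 3 counts and its fold written as "at least". For shares of cells, each cell was thinned to 1000 UMIs, which left out 12 late KPC macrophages. The scripts were tested on simulated counts with known answers.

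The members and gene lists were chosen with earlier results of these data known. Beside the 9 members, the text names of each list the 2 genes furthest up and the 2 furthest down among those called, and the 5 genes most like Arg1, Chil3 and Retnla by Pearson correlation; it prints those that bear on the members. Just inside the C1q rule (10 to 20 per 10000) lay 1, 45, 19, 198 and 44 macrophages, and just outside it (5 to 10) 1, 266, 20, 157 and 56 cells, in the order normal pancreas, early KIC, late KIC, late KPfC and late KPC. Alternatives were other C1q rules, barcode filters, scalings, UMI minimums and folds, cells of either sex, and removal of candidate doublets or shared barcodes. Promoter and gene coordinates are on GRCm38 (RefSeq GRCm38.p6 and GENCODE).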

Additional observations from a re-analysis of the deposited data

Results flagged for a closer look

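In 3 cases a member lay on opposite sides in 2 libraries under the same contrast, with the intervals of both ratios clear of 1 and at least 1 of them 2-fold. With 1 library per group the difference between the libraries was not tested. The log2 difference of Arg1 between macrophages and monocytes was -1.83 in early KIC and 0.83 in late KPfC. In early KIC 5 of the 49 monocytes held 44 of their 60 Arg1 UMIs. The difference was -0.28 in late KIC and 0.33 in late KPC. That of Ass1 was -1.37 in late KPfC and 1.005 in late KPC, where it rests on 43 and 16 UMIs; late KIC, at -1.08, lay on the side of late KPfC. The log2 difference of Odc1 between macrophages and all cells outside the C1q rule was -0.54 in late KPC and 1.06 in late KPfC; it was 0.68 in early KIC and 0.80 in late KIC.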

How the results depend on the processing

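Of 270 alternative values of counts and cell-sharing ratios, 259 stayed within 1.5 times or within the interval and 11 moved. Of 1245 member log2 ratios 159 moved and 12 turned direction, of 981 list medians 27 moved and 1 turned, and of 486 CPM values 66 moved. Members apart between macrophages and monocytes went from 2 in late KPC to 1 without haemoglobin and acinar genes in the total, as a mean over cells, and without macrophages holding markers of other cells, and to 4 at a fold of 1.5. They went from 2 to 5 at that fold in early KIC, and to 1 there and from 5 to 3 in late KIC when all C1q-low cells of those clusters counted as monocytes. Members higher than in all other cells went from 4 to 2 in normal pancreas with Xist cells only, and from 2 to 4 in late KPC at a fold of 1.5. The Chil3 and Retnla ratio of late KPfC, 0.42, was 0.155 without macrophages holding markers of other cells and 0.872 without thinning. Leaving haemoglobin and acinar genes out of the total turned 3913 higher and 558 lower genes of normal macrophages against other cells (87.5% higher) into 1443 and 1859 (43.7%). Log2 differences that turned were Chil3 (-0.022 with the stricter C1q rule, -0.010 as a mean over cells) and Arg2 (-0.048 as that mean) in late KPfC macrophages against other cells, Ass1 there in late KIC (-0.21 as that mean, -0.23 without macrophages holding other markers, -0.019 in Xist cells), and Odc1 against monocytes in late KPfC (-0.014 with the looser rule). In late KIC against late KPfC, Mgl2 became -0.067 in Xist cells and Ass1 0.066 in Y cells. Against monocytes in late KIC, Arg1 became 0.41 and Ass1 0.35 in Y cells, and Retnla -0.61 with all C1q-low cells as monocytes. The Retnla value rests on 1 cell, which held most Retnla UMIs outside the C1q rule there. The peritoneal-type median of early KIC against normal pancreas was -0.95 with no UMI minimum. Without that minimum, a gene with 0 UMIs in the normal macrophages takes the floor of 3 counts there. A few early KIC UMIs then give a ratio below 1, so this median is not read as a change of direction. The cause of the other turns was not tested. Restricting macrophages to macrophage-like or monocyte-like clusters was chosen after seeing the data; it moved none of the counts by over 1.5 times. Y cells alone gave no value in normal pancreas (3 macrophages), nor Xist cells for late KIC monocytes, nor Y cells for Nos2 in late KIC. No paired analysis was possible because each group is 1 library. The 41 normal macrophages limit what can be said of genes at 0 or near it there.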
